A study of Mus musculus with 16 samples.

Results

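Receptor-type tyrosine phosphatases are single-pass membrane proteins that carry an extracellular region for adhesion or ligand binding and 1 or 2 phosphatase domains inside the cell, where they remove phosphate from tyrosines of junction proteins, growth factor receptors and Src family kinases. In the gut epithelium they sit at cell contacts and on the brush border, and PTPRK is best known there because recurrent fusions of its 5′ end to RSPO3 place a Wnt-amplifying R-spondin under the PTPRK promoter in colorectal tumours. From the 24421 genes listed in the expression matrices, 8 rows were taken by gene name, namely Ptprk and 7 relatives (Ptprm, Ptprf, Ptprs, Ptprj, Ptprh, Ptpra and Ptprr). Of these 8, 5 reached 100 UMIs (unique molecular identifiers, each standing for 1 captured transcript) over all cells, as did 7458 genes in all. Ptprj, Ptprr and Ptprm, with 41, 19 and 6 UMIs, did not reach that minimum and were described by their counts.

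The cells came from crypt isolates of the mouse intestine at postnatal day 16, from outbred animals labelled WT or ROBO, with 8 labelled samples of each. ROBO mice carry a multicolour Crainbow transgene, switched on in the gut epithelium by Villin-Cre, from which a recombined cell expresses human RSPO3 or 1 of 2 human PTPRK-RSPO3 fusions, holding PTPRK exon 1 or exons 1 to 7, in addition to its own mouse Ptprk gene. WT cells are the controls, and the labels name no drug or other agent for either group. The matrices held 1348 WT cells with 2682127 UMIs and 1249 ROBO cells with 2428435 UMIs, at a median of 1492 and 1610 UMIs per cell. Cell names gave the genotype but not the animal, so each genotype was 1 pooled sample without replicates. All intervals below are exact 95% intervals that cover counting error only, and no difference between genotypes was tested across animals. Neither the transgene nor its reporters had a row of its own, so cells that expressed a fusion could not be told from those that did not.

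The 8 genes are related through the catalytic loop of the phosphatase domain that lies closer to the membrane, whose coding bases are shown to identify the family. The lines give 30 coding bases, 5′ to 3′ on the coding strand, read from the mouse transcript with the longest complete coding sequence in GENCODE M21 (GRCm38), and capitals mark the 24 bases of the loop.
Ptprk: gtaCACTGCAGTGCTGGTGCTGGGCGCaca
Ptprm: gtaCACTGCAGTGCTGGAGCAGGAAGGaca
Ptprf: gtgCATTGCAGTGCGGGTGTGGGGCGCaca
Ptprs: gtcCACTGCAGCGCGGGTGTGGGGCGCact
Ptprj: gtgCATTGCAGTGCTGGGGTTGGAAGGacg
Ptprh: gtgCATTGCAGTGCTGGTGTGGGCCGGacg
Ptpra: gtcCACTGCAGTGCAGGTGTAGGGCGCact
Ptprr: gtcCACTGCAGTGCGGGGATTGGGAGAact
Relatives matched the loop of Ptprk at 18 to 21 of these 24 bases, with 18 for Ptprj and Ptprr and 21 for Ptpra.

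Ptprk lies on the plus strand of chromosome 10 (chr10:28074820-28597397), and the transcript used has 34 exons. Because the fusions in this model break PTPRK after exon 1 or after exon 7, the corresponding joins of the mouse transcript are shown, with the downstream exon in capitals.
Ptprk exon 1 to 2: gccagttctcagcagGTGGCTGTACTTTTG
Ptprk exon 7 to 8: gaacgaagtgtgcagAACCTATGCGGACAC
In this transcript 4430 bases follow exon 1 and 3368 bases follow exon 7. The libraries tagged the 3′ end of each transcript, which a fusion ending in RSPO3 does not share with Ptprk, so the Ptprk counts refer to the endogenous gene. The other members lie at chr17:66666947-67354457 (Ptprm), chr4:118208213-118291405 (Ptprf), chr17:56412426-56476483 (Ptprs), chr2:90429754-90580647 (Ptprj), chr7:4548612-4604041 (Ptprh), chr2:130450278-130556124 (Ptpra) and chr10:116018213-116274932 (Ptprr). Among the last exons of the transcripts used, that of Ptpra alone overlaps a gene on the other strand (4930473A02Rik). Since strand use in the counting is not given in the sources used here, Ptpra counts carry that uncertainty. For some members, such as Ptprk and Ptprj, that exon stops short of the 3′ end of the gene. The rest of the 3′ region was not checked, and Ptprk and Ptprj each overlap 1 gene on the other strand.

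Summed over all cells, Ptprk was the second most abundant receptor-type phosphatase, well behind Ptprf. The 21 receptor-type genes listed held 3628 UMIs, of which the 8 chosen genes took 82.4%. Ptprf alone took 50.9% with 1848 UMIs and ranked 398 among all genes, whereas Ptprk took 12.1% with 440 UMIs and ranked 2420. Ptprh (319 UMIs), Ptpra (208) and Ptprs (108) followed among the members, and Ptprd (314), Ptprg (129) and Ptprc (95) among the other receptor-type genes. A 3′ tag counts each transcript once whatever its length, so these UMI levels were compared between genes without dividing by length. A UMI of at least 1 of the 8 genes was seen in 59.0% of the cells.

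Clusters were named from marker genes, and Ptpr genes were kept out of the genes used for clustering. No member was a marker, whereas Ptprc was 1 of the 18 immune markers used to name the immune-like class. Of the 2597 cells, 2239 fell in epithelial-like classes, comprising 582 stem cell-like, 526 transiently amplifying-like, 335 bottom, 412 middle and 228 top enterocyte-like, 127 secretory-like (goblet and Paneth markers) and 29 enteroendocrine-like cells. The 582 stem cell-like and 526 transiently amplifying-like cells are called crypt classes here, and middle and top enterocyte-like cells are called villus classes. There were 46 immune-like and 8 fibroblast-like cells. A pair of clusters stayed unnamed, 1 led by Cxcl10, Atf3 and Fosb (169 cells) and 1 led by Myl7, Reg3g and Sult1a1 (135 cells). Median depth ran from 1032 UMIs in stem cell-like to 2956 in Myl7-led cells, so levels are given as UMIs per 10000 UMIs of a class.

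**Figure D1:**
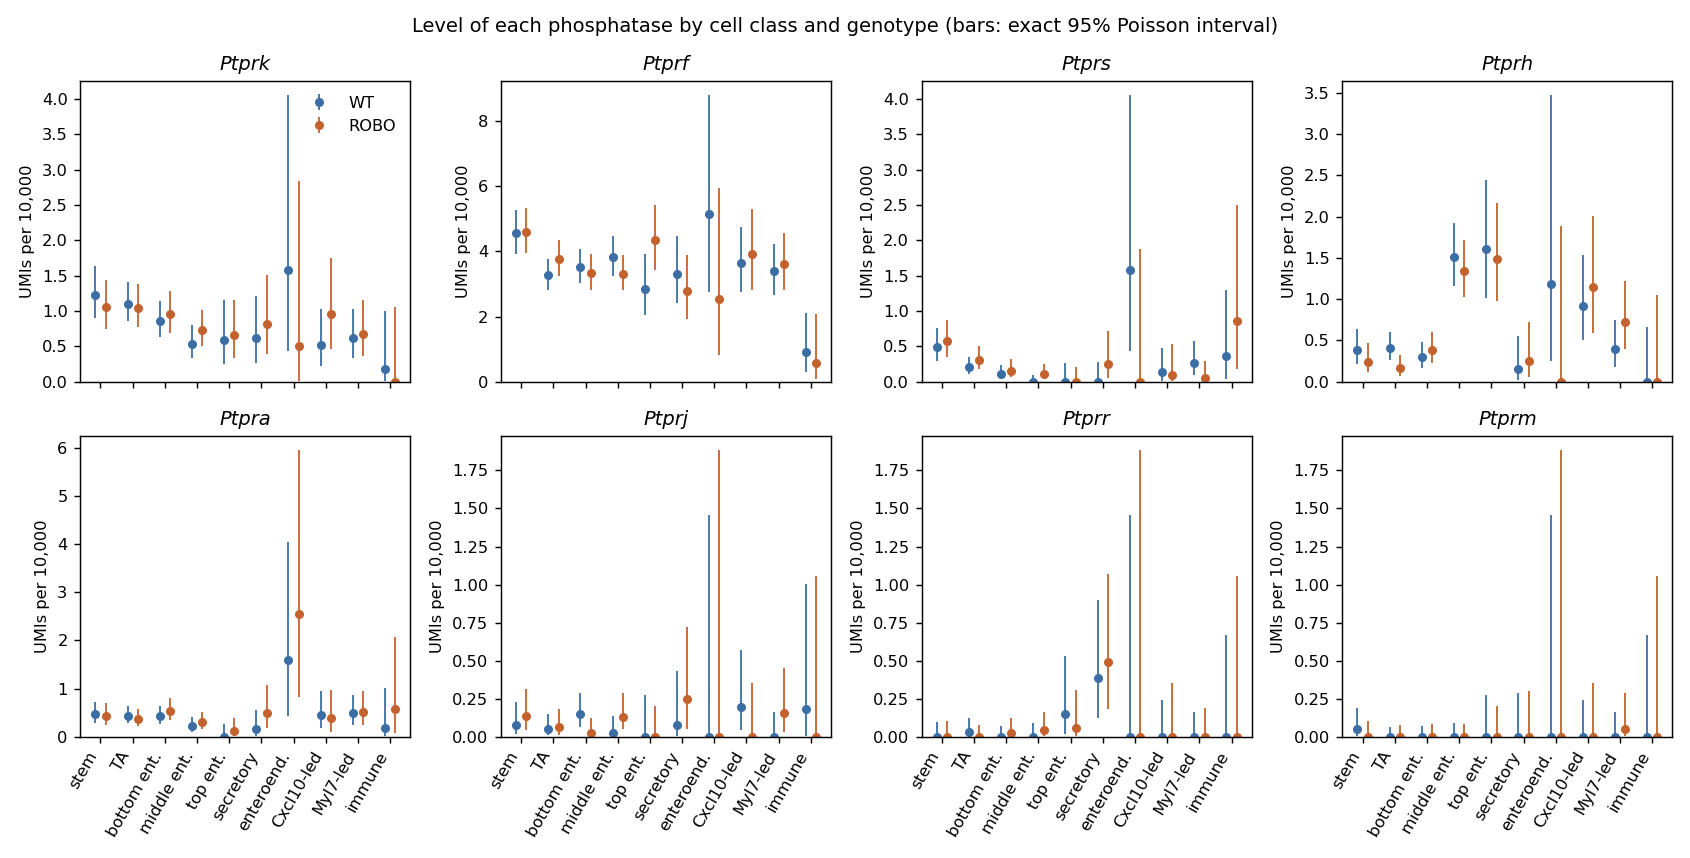
Level of each of the 8 phosphatases (y axis, UMIs per 10000 UMIs, each panel with its own scale from 0) in 10 cell classes (x axis; TA, transiently amplifying; ent., enterocyte; enteroend., enteroendocrine), for WT (blue) and ROBO (orange), with exact 95% Poisson intervals. Ptprk declined from stem cell-like to top enterocyte-like cells in both genotypes, Ptprh was highest in middle and top enterocyte-like cells, and Ptprr was highest in secretory-like cells.

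Ptprk, a homophilic adhesion phosphatase of cell-cell contacts, was highest at the crypt end of the 5 classes from stem cell-like to top enterocyte-like cells and lower toward the villus. In WT it stood at 1.23 UMIs per 10000 in stem cell-like, 1.11 in transiently amplifying-like, 0.863 in bottom, 0.526 in middle and 0.586 in top enterocyte-like cells. In ROBO the same classes held 1.06, 1.05, 0.956, 0.725 and 0.660 per 10000. Stem cell-like cells were thus the highest of these 5 classes in both genotypes and middle and top cells the lowest. Over both genotypes, the step from bottom to middle cells had a log2 ratio of -0.52 (-1.03 to -0.02), the one of the 4 steps along the axis whose interval left out 0, and within WT and within ROBO the intervals of all 4 steps held 0. Over both genotypes, the crypt classes held 204 UMIs (1.11 per 10000, 0.960 to 1.27) and the villus classes 75 UMIs (0.629 per 10000, 0.495 to 0.789). For Ptprk, villus over crypt gave a log2 ratio of -1.09 (-1.73 to -0.50) among WT cells, and of -0.57 (-1.12 to -0.04) among ROBO cells. Both intervals lay below 0, but the ROBO value fell just short of the 1.5-fold difference required here in both genotypes for a call, which Ptprk did reach under 5 of 12 alternative settings.

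When each cell was thinned to 912 UMIs, a Ptprk UMI was found in 9.29% (7.29 to 11.6) of crypt cells and 5.02% (3.28 to 7.32) of villus cells, against 14.1% and 10.2% without thinning, at median depths of 1235 and 1477 UMIs. None of 36 thinned immune-like cells had one, which allows a share of up to 8.33%, against 1 of 46 without thinning (2.17%, 0.055 to 11.5) at a median of 1750 UMIs. Both epithelial intervals overlapped what the immune-like cells allow, so detection alone does not separate either share from background at this depth, and the comparison rests on the summed levels. Outside the main enterocyte line, Ptprk read 0.716 per 10000 in secretory-like cells (18 UMIs), 1.11 in enteroendocrine-like cells (5 UMIs), 0.697 in the Cxcl10-led cluster and 0.642 in the Myl7-led cluster. The enteroendocrine-like value came from 4 WT UMIs (1.58 per 10000, 0.431 to 4.05) and 1 ROBO UMI (0.510), and stood above the stem cell-like level in WT and after thinning (1.73 against 1.22 per 10000), so its place in the order relative to stem cell-like cells was not settled at this depth.

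Across all 5 testable members, 3 passed 1.5-fold between villus and crypt classes in the same direction in both genotypes. Ptprh was higher in villus, and Ptprs and Ptpra were lower. Of all 7458 genes, 15% were called higher and 34.7% lower, so 2 of 5 lower calls are near the background share. The median gene stood at a log2 ratio of -0.40 against -0.81 for the members, in villus cells whose 100 most abundant genes took 30.1% of the UMIs compared with 25.5% in crypt cells. After centring each genotype on its median gene, a choice made after seeing the data, 23.2% of genes were called higher and 21.8% lower, and 2 of 5 members remained, Ptprh higher and Ptprs lower. Relative to that median, Ptprk was at -0.41, Ptpra at -0.61 and Ptprf at 0.27 over both genotypes. By genotype, Ptprk was at -0.73 in WT and -0.15 in ROBO, Ptpra at -1.09 and -0.24, and Ptprf at 0.29 and 0.23. In ROBO, Ptprk thus fell little further than the median gene.

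**Figure D2:**
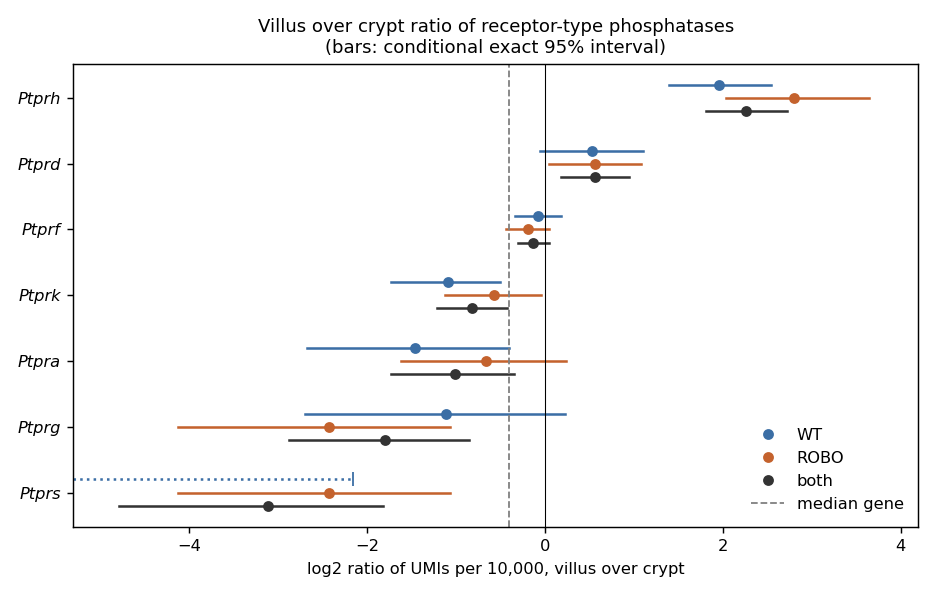
Villus over crypt log2 ratio (x axis) of the 5 members with at least 100 UMIs and of Ptprd and Ptprg (y axis), in WT (blue), ROBO (orange) and both together (black), with conditional exact 95% intervals; the dashed line is the median gene and the dotted bar, ended by its upper bound, is Ptprs in WT, which had 0 villus UMIs. Ptprh lay to the right, Ptprf near 0 and Ptprs farthest to the left.

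Ptprh (SAP-1), a phosphatase of enterocyte microvilli, had the opposite course to Ptprk. In WT, 85 UMIs in villus cells (1.53 per 10000) compared with 39 in crypt cells (0.395), and in ROBO 88 (1.38) compared with 17 (0.199). No interval of a villus level overlapped that of a crypt level in either genotype. On the log2 scale the difference came to 1.96 (1.39 to 2.54) for WT, 2.80 (2.04 to 3.64) for ROBO and 2.26 (1.81 to 2.72) over both, about 4.78-fold. The level changed between the bottom class, at 0.332 per 10000, and the middle class, at 1.42, whereas stem cell-like (0.316) and transiently amplifying-like cells (0.295) were close to bottom and top cells (1.54) close to middle. After thinning, 11.4% of villus cells and 1.91% of crypt cells had a Ptprh UMI, compared with 20.8% and 4.51% without thinning and none of 36 immune-like cells. The bound given above for none of 36 cells lies above the crypt share, so detection does not separate that share from background.

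Ceacam20, a membrane protein of microvilli and a substrate of Ptprh, was measured beside it. It counted 74 UMIs in villus against 2 in crypt cells in WT, and 94 against 5 in ROBO, a log2 ratio of 5.21 (4.14 to 6.55) over both genotypes. Thus the phosphatase and its substrate were both higher in the villus classes. Unlike the phosphatases, Ceacam20 and the other genes compared here were not kept out of the clustering. Src, the kinase to which Ceacam20 signalling is linked, was also called higher (52 against 41 UMIs in WT, 52 against 24 in ROBO; log2 ratio 1.31, 0.85 to 1.78, over both).

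Ptprf, Ptprs and Ptprd, the 3 phosphatases of the LAR group, which bind heparan sulphate proteoglycans, took different courses along the same axis. Between the summed crypt and villus classes Ptprf was nearly level, at 3.78 per 10000 in crypt and 3.59 in villus cells of WT and 4.12 and 3.61 in ROBO. Its log2 ratios were -0.07 (-0.33 to 0.18) and -0.19 (-0.44 to 0.05), with intervals that held 0 and left out 1.5-fold. Over both genotypes Ptprf was highest in stem cell-like cells (4.58 per 10000, 4.11 to 5.09) and ran from 3.06 to 4.01 in all other epithelial-like classes and both unnamed clusters. The Ptprf step from stem cell-like to transiently amplifying-like cells had a log2 ratio of -0.39 (-0.61 to -0.18) over both genotypes. In ROBO alone the interval of that step held 0 (-0.29, -0.60 to 0.02). Enteroendocrine-like cells, with 18 Ptprf UMIs, stood above stem cell-like cells in WT (5.15 against 4.57 per 10000) and below them in ROBO (2.55 per 10000), and the WT intervals overlapped.

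Ptprs was a crypt transcript at low level. Stem cell-like cells held 19 UMIs in WT and 21 in ROBO (0.527 per 10000 together), transiently amplifying-like cells 12 and 15 (0.249), bottom cells 6 and 7 (0.131), middle cells 0 and 5 (0.0572) and top cells 0 and 0. Transiently amplifying-like over stem cell-like cells gave a log2 ratio of -1.08 (-1.84 to -0.34) over both genotypes, which exceeded counting error, while in ROBO alone the interval held 0 (-0.88, -1.94 to 0.14). In WT the 0 villus UMIs allow a level of up to 0.0541 per 10000 (3 counts) against 0.314 in crypt cells, and the exact interval of the log2 ratio ended at -2.15. In ROBO the villus over crypt log2 ratio was -2.42 (-4.13 to -1.07). For top enterocyte-like over stem cell-like cells the interval ended at -2.12 over both genotypes.

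Ptprd was higher at both ends than between them, at 0.961 per 10000 in stem cell-like, 0.434 in transiently amplifying-like, 0.312 in bottom, 0.710 in middle and 1.67 in top enterocyte-like cells. It made up 20.8% of the receptor-type UMIs in top enterocyte-like cells. Ptprg, a phosphatase that binds contactins, went the other way, with 23 crypt and 6 villus UMIs in WT and 36 and 5 in ROBO, and was called lower in villus (log2 ratio -1.79, -2.87 to -0.85). For Ptprd the villus over crypt log2 ratio was 0.57 (0.19 to 0.95), under the 1.5-fold call in both genotypes unless centred on the median gene. In top enterocyte-like cells Ptprh took 19.2% and Ptprk 7.84% of the receptor-type UMIs. In middle enterocyte-like cells Ptprh took 20.2%, Ptprd 10.1% and Ptprk 8.96%. Ptprk was thus below Ptprf, Ptprh and Ptprd in both villus classes, unlike in the sum over all cells.

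Ptpra, which activates Src family kinases by removing an inhibitory phosphate, was called lower in the villus. Counts were 9 villus against 44 crypt UMIs in WT and 16 against 34 in ROBO, with log2 ratios of -1.46 (-2.68 to -0.40) and -0.66 (-1.62 to 0.24). The ROBO interval held 0, and the call was lost after centring. Top enterocyte-like cells had 2 Ptpra UMIs in all, at 0.0628 per 10000, compared with 0.448 in stem cell-like and 0.473 in bottom cells.

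The enteroendocrine-like class, the hormone-secreting cells, had the highest Ptpra level of the classes with at least 10 cells per genotype. It held 4 UMIs in 15 WT cells (1.58 per 10000) and 5 UMIs in 14 ROBO cells (2.55), and 7 of the 29 cells had a UMI. Against all other epithelial-like cells the log2 ratio was 2.44 (1.29 to 3.40). The 8 fibroblast-like cells held 6 Ptpra UMIs (3.76 per 10000, 1.38 to 8.18), as well as 3 of the 6 Ptprm UMIs of the whole data set, all 3 in 1 WT cell. Ptprs had 4 UMIs in the WT enteroendocrine-like cells and 0 in the ROBO ones. Ptprn and Ptprn2, phosphatase-like proteins of dense-core secretory granules, counted 8 and 16 UMIs in the same 29 cells, of 11 and 30 in all cells.

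Ptprr, which binds and inactivates MAP kinases, was rare but unevenly placed. Of its 19 UMIs, 11 were in the 127 secretory-like cells, 5 of 9 in WT and 6 of 10 in ROBO. The level there was 0.438 per 10000 (0.218 to 0.783), with a log2 ratio of 4.48 (3.03 to 6.00) against other epithelial-like cells. The 11 UMIs came from 10 cells, all 10 of which had more goblet than Paneth marker UMIs, as did 81 of all 127 secretory-like cells. Ptprn2 had 11 UMIs in the same class. Over all cells, goblet markers stood at 42.9 per 10000 in WT and 53.2 in ROBO, and Paneth markers at 24.7 in WT and 17.2 in ROBO. Ptprj (CD148), a broadly expressed phosphatase that acts on growth factor receptors, had 34 of its 41 UMIs in epithelial-like cells, 14 in crypt and 7 in villus classes (log2 ratio -0.37, -1.92 to 1.03), with 0 in top enterocyte-like cells.

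**Figure D3:**
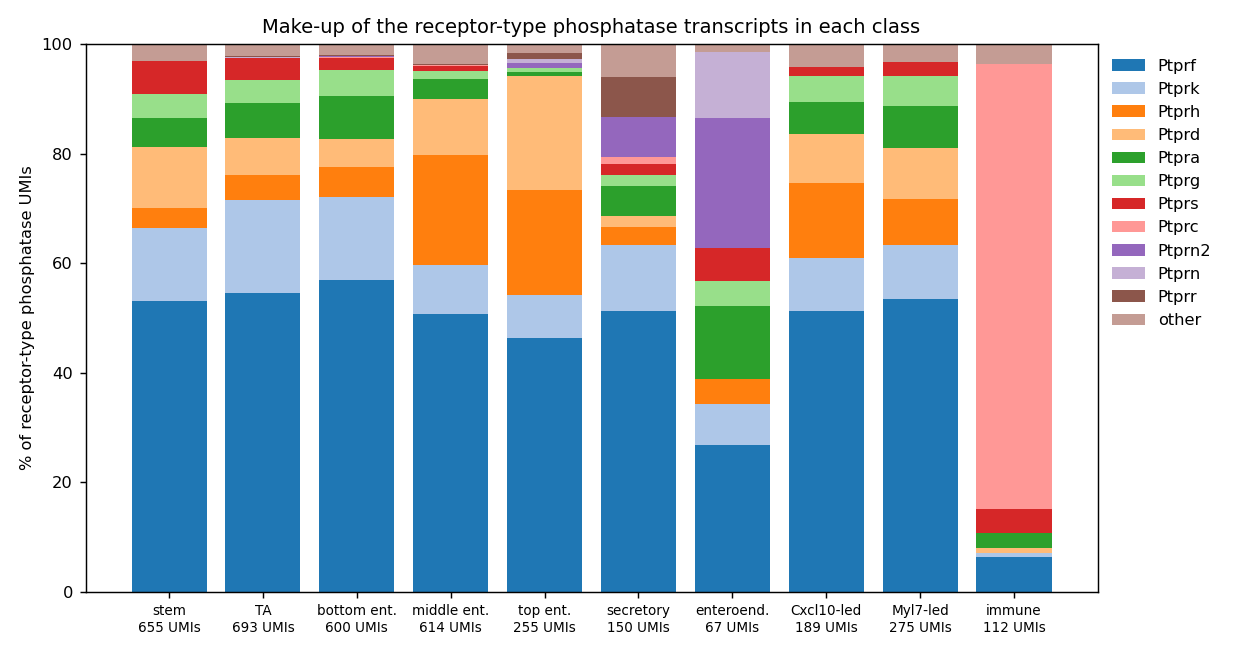
Share of each receptor-type phosphatase (y axis, percent of the receptor-type UMIs) in 10 cell classes (x axis, with the number of receptor-type UMIs behind each bar); colours mark 11 genes and the sum of the rest. Ptprf took the largest share in all epithelial-like classes, Ptprh grew in middle and top enterocyte-like cells, and Ptprc took 81.2% in immune-like cells.

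Immune-like cells had a different set of phosphatases from the epithelium. Ptprc (CD45), the phosphatase of the lymphocyte antigen receptor pathway, had 91 of its 95 UMIs in the 46 immune-like cells and made up 81.2% of their receptor-type UMIs. Ptprc was also among the immune markers that named this class, so its place there is in part fixed by the naming. In the same cells Ptprk had 1 UMI, Ptprf 7, Ptprs 5, Ptpra 3, Ptprj 1, and Ptprh, Ptprr and Ptprm 0. Of the 5 members compared, 3 were called lower than in epithelial-like cells and 1 (Ptprs) higher. Of all genes compared, 42.3% were called lower and 21.6% higher. Members and all genes compared had to reach the UMI minimum over all cells. Epithelial-like cells held 4325345 of the 5110562 UMIs and immune-like cells 90442, so this minimum favours genes that are high in epithelial-like cells. Ptprc, with 95 UMIs, fell under it. The part of this choice in the lower calls was not tested.

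Against epithelial-like cells, the log2 ratio was -3.04 (-8.34 to -0.55) for Ptprk and -2.25 (-3.57 to -1.20) for Ptprf. For Ptprh, the 0 UMIs allow up to 0.332 per 10000 against 0.624 in epithelial-like cells, and the interval of the log2 ratio ended at -0.60. Within WT and within ROBO it ended at 0.06 and 0.84, so a Ptprh difference was not detectable in either genotype alone. For Ptprs (1.38, -0.28 to 2.65) and Ptpra (-0.22, -2.51 to 1.35) the intervals held 0, so a difference was not detectable at this depth, and the call of Ptprs rests on 5 UMIs. Summed immune markers stood at 467 per 10000 in these cells, while stem cell and top enterocyte markers were at 3.87 and 7.96, compared with 18.0 and 21.6 in epithelial-like cells. Epcam, an epithelial adhesion molecule, stood at 3.76 per 10000 against 19.5, and Cdh1, the epithelial cadherin, at 1.33 against 5.83, while Ptprf stood at 0.774 per 10000, a 0.21-fold level. The part of epithelial RNA in the Ptprf and other member UMIs of these cells was not tested.

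Between the genotypes, none of the 5 members passed 1.5-fold over all cells, compared with 2.79% of all genes. Ptprk counted 227 UMIs among WT cells (0.846 per 10000, 0.740 to 0.964) and 213 among ROBO cells (0.877, 0.763 to 1.003), or 0.05 (-0.23 to 0.33) on the log2 scale. Each genotype's level lay inside the interval of the other. For the other members the ROBO over WT log2 ratio was 0.04 (-0.10 to 0.17) for Ptprf, 0.30 (-0.27 to 0.88) for Ptprs, -0.01 (-0.34 to 0.31) for Ptprh and 0.17 (-0.24 to 0.58) for Ptpra. All 5 intervals held 0, and those of Ptprk, Ptprf, Ptprh and Ptpra left out a 1.5-fold difference in either direction, as far as counting error goes. Within epithelial-like cells alone, Ptprk was at 0.906 per 10000 in both genotypes. Fewer cells of a type and less RNA per cell were not separated in the sums over all cells. There, immune markers stood at 10.2 per 10000 in WT and 6.47 in ROBO and fibroblast markers at 1.30 and 3.43, and the part of these shifts in the ratios was not tested.

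**Figure D4:**
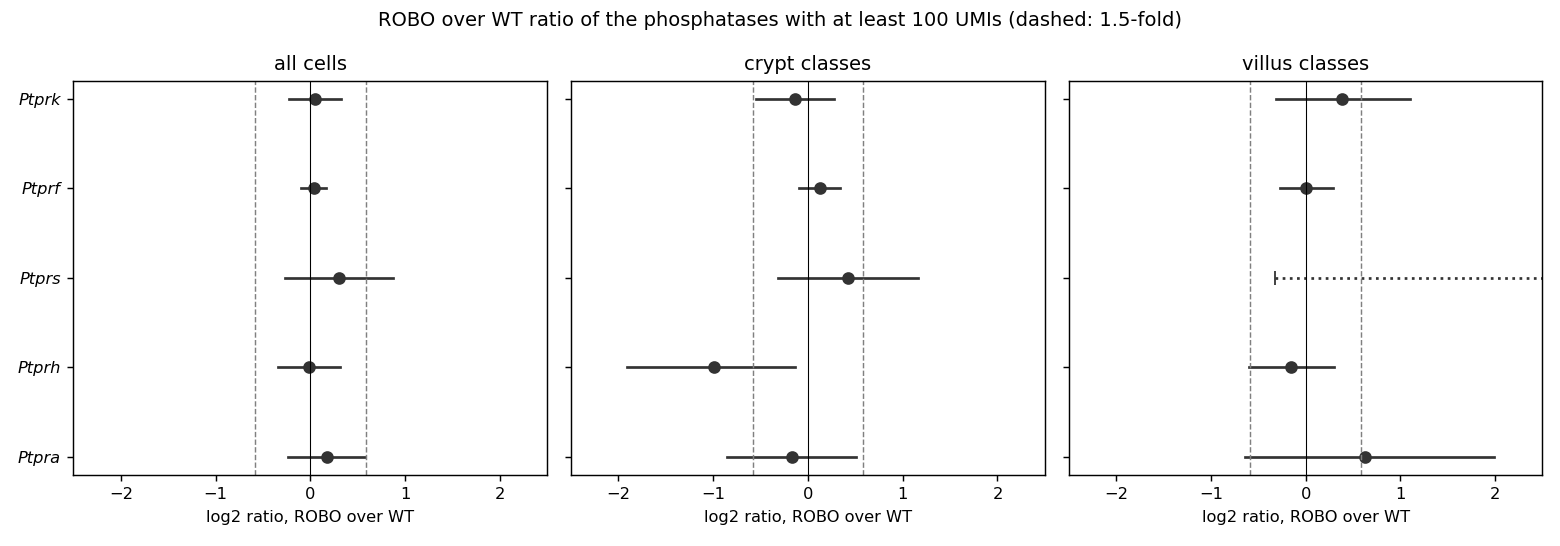
ROBO over WT log2 ratio (x axis) of the 5 members with at least 100 UMIs (y axis), over all cells, crypt classes and villus classes, with conditional exact 95% intervals; dashed lines mark 1.5-fold and the dotted bar is Ptprs in villus cells, where WT had 0 UMIs. All intervals held 0 except that of Ptprh in crypt classes.

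Class by class, 34 of the 88 combinations of member and class held at least 10 UMIs over both genotypes. In 2 of these 34, the ROBO over WT interval left out 0. With 34 intervals and no adjustment for their number, counting error alone could give 2 such cases. Both are described below and are not read as genotype differences. Ptprh in transiently amplifying-like cells counted 24 WT and 8 ROBO UMIs (log2 ratio -1.29, -2.66 to -0.09). Over both crypt classes, which include those same UMIs, the Ptprh ratio was -0.99 (-1.91 to -0.14). Ptprf in top enterocyte-like cells counted 39 WT and 79 ROBO UMIs, with a log2 ratio of 0.60 whose interval began at 0.03. Under the alternative clusterings and cell filters, 6 of 7 intervals for Ptprh held 0, with log2 ratios of -1.69 to -0.88 in 6 of the 7 and of 0.0025 with 30 principal components. Of 8 intervals for Ptprf, 2 held 0. For Ptprk the interval held 0 in every class.

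By pattern over the 20 sums of 10 classes and 2 genotypes, the gene most like Ptprk was Ptprf (Pearson r = 0.92 of log2 levels), followed by Usp33 (0.91), a deubiquitinase, and Shroom3 (0.91), a regulator of apical constriction. Without the immune-like sums, where all of these were low, r fell to 0.58, 0.50 and 0.42 over 18 sums, so the likeness rested largely on the epithelial and immune contrast. Ptprh was most like Igsf23 (0.95), Abcc2 (0.95), an apical efflux pump, and Amdhd2 (0.94), and these values were 0.92, 0.92 and 0.90 without the immune-like sums. Ptprf was most like Shroom3 (0.94), Onecut2 (0.93) and Cep170b (0.93), and Ptpra most like Ddx1 (0.91), Man2c1 (0.89) and Sfr1 (0.87). Without the immune-like sums these values were 0.41, 0.60 and 0.31 for Ptprf, and 0.91, 0.92 and 0.94 for Ptpra. The sums share libraries and depth, and these correlations are a description.

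Among genes of the same pathways, those of the R-spondin axis followed a steeper course than Ptprk. All 4 with at least 100 UMIs (Lgr4, Lgr5, Rnf43 and Znrf3, the receptors and ubiquitin ligases through which R-spondins amplify Wnt signals) were called lower in villus classes. Rnf43, for example, had 243 crypt and 47 villus UMIs in WT and 181 and 56 in ROBO. Rspo3, the fusion partner, had 24 UMIs in WT and 16 in ROBO by its mouse row, below the minimum. Lgr4 was no longer called after centring on the median gene, and the other 3 were. Lgr5 was a marker that named the stem cell-like class, and Rnf43 and Lgr5 were among its 10 leading genes. Unlike Ptprk, the genes of this axis were not kept out of the clustering, so the steeper course is not a like comparison. The lists below are read against the 15% of all genes called higher and 34.7% called lower, or 23.2% and 21.8% after centring. Of 7 ligands and ligand-like partners, Sdc1, Sdc2, Sdc4 and Hspg2 were called lower, Ceacam20 higher, and Gpc3 and Agrn in neither direction. After centring, Sdc4 and Hspg2 were lower, and Agrn and Ceacam20 higher. Of 10 junction proteins 1 was called lower, Cdh1, and none higher, whereas after centring none was lower and 3 were higher, namely Ctnna1, Ctnnd1 and Jup, catenins of cadherin junctions. Of 11 kinases 6 were lower and Src higher, and after centring 3 were lower (Egfr, Igf1r and Fyn) and 3 higher (Src, Lyn and Mapk3). Of 8 non-receptor phosphatases Ptpn11 was lower under both scalings, and Ptpn6 and Ptpn23 were higher after centring only. Of 5 liprins and LAR-binding scaffolds, none was called in either direction under either scaling. None of these lists had a gene past 1.5-fold between ROBO and WT over all cells.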

How the data were processed

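Single cells were captured and 3′-tagged with unique molecular identifiers (ddSEQ, SureCell), and the authors deposited raw counts per gene and cell from BaseSpace Sequence Hub, 1 matrix per genotype, not normalized. The aligner and annotation are not given in the sources used here, and the submitters' processing notes name mm10 and GRCm38. Members and gene lists were chosen with earlier results of these data known.

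Cells of both genotypes (463 to 13756 UMIs per cell) were clustered with Seurat 5.3.0 (R 4.3.3) on 1995 variable genes without Ptpr genes, S and G2M scores regressed, 20 principal components and a resolution of 0.8, giving 13 clusters. Names needed 3 markers raised 1.5-fold in at least 10% of cells and a marker among the 10 leading genes. The marker lists preceded the clusters and this rule followed them. Scrublet in scanpy 1.11.5 called 1 WT and 4 ROBO doublets (expected rate 5%) and they were kept except in an alternative.

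UMIs were summed per class and genotype and scaled to 10000. Intervals (scipy 1.17.1) are exact Poisson for levels, Clopper-Pearson for shares and conditional exact for ratios. A gene with at least 100 UMIs was called past 1.5-fold, in both genotypes for villus over crypt and over the summed cells otherwise. With 1 pooled sample per genotype there is no test or p-value. The call rule was run on simulated Poisson counts with known changes larger than 1.5-fold, without spread between cells or animals and without clustering. That run does not show how calls behave near 1.5-fold or between animals. Named genes are all members, other receptor-type phosphatases by total UMIs, list members with at least 100 UMIs, and for members with at least 200 UMIs the 3 genes with the highest Pearson r of log2(level + 0.1). Ptprd and Ptprg were described further after their values were seen.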

Additional observations from a re-analysis of the deposited data

How the results depend on the processing

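The count of members called between villus and crypt classes was 3, and ran from 2 to 4 over 13 alternatives. Of the 12 alternatives that keep the 1.5-fold rule, Ptprh and Ptprs were called in all, Ptpra in 10, Ptprf in 0 and Ptprk in 5. Ptprk was called with phase scores not regressed, at resolutions of 0.4 and 1.2, with Ptpr genes kept among the variable genes, and without ribosomal protein and Rn45s UMIs in the total. Its log2 ratio ran from -1.03 to -0.41. Ptprh ran from 1.80 to 2.95, Ptprs from -5.13 to -2.71 and Ptpra from -1.51 to -0.61. Ptprf ran from -0.32 to 0.27, the positive value arising by construction from centring on the median gene. The count between ROBO and WT was 0 in all 7 alternatives that apply to it, and that between immune-like and epithelial-like cells was 4 or 5. In that comparison the log2 ratio of Ptprk ran from -4.75 (mean over cells) to -1.26 (30 principal components), that of Ptprf from -2.38 to -1.31 under the same settings, and that of Ptprs from 1.14 to 1.65. Ptpra, not called in the values reported above, changed sign and ran from -1.16 (mean over cells) to 1.08, the last without regression of phase scores. Leaving out the cluster led by Rn45s, chosen after seeing the data, gave the same 3 counts. The ROBO over WT log2 ratio of Ptprh in transiently amplifying-like cells ran from -1.69 to 0.0025, the last with 30 principal components, and the cause was not tested. That of Ptprf in top enterocyte-like cells ran from 0.31 to 0.61. The enteroendocrine-like value of Ptpra (2.23 to 2.52) and the secretory-like value of Ptprr (3.78 to 5.24) stayed above 0 wherever the class was found. Differences in the rare classes rest on 29, 46 and 8 cells. No paired analysis was possible because the cell names carry no sample number, and for the same reason no replicate could be left out.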
